A study of Homo sapiens with 6 samples.

Results

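The array used here holds probe sets whose probes read the transcripts of more than 1 gene, most often copies of a duplicated family. These were the probe sets whose gene entry in the platform's probe table listed more than 1 symbol, and there were 1754 of them among the 33297 probe sets of the table. A further 19460 probe sets had 1 symbol each. The RNA came from PC3, an established androgen-independent prostate cancer cell line, and was precipitated with an anti-Ago2 antibody (clone 11A9) before it was read on gene arrays of Affymetrix. AGO2 is an Argonaute protein, which carries a microRNA and binds transcripts through it. One group of 3 cultures had received miR-205 and the other group of 3 a negative control mimic, and the series design calls both biological triplicates. All 6 arrays were precipitates and no input RNA array was analysed here, so more AGO2 on a transcript and more of that transcript in the cell cannot be told apart in any value below.

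Gene families grow when a stretch of genome is copied, and the copies can stay so alike that short array probes bind transcripts of several of them. Some copies still encode the same protein, others are pseudogenes that lost their reading frame, and some were pasted back into the genome from spliced RNA. Other shared probe sets read 1 locus that carries several names: a read-through transcript that joins neighbouring genes, or a small RNA inside the intron of a host gene. A microRNA guides AGO2 mainly through its seed, the bases at positions 2 to 8 from its 5′ end, and the host transcripts of microRNAs and small nucleolar RNAs (snoRNAs) are cut or spliced to release them.

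The sequences below are background from RefSeq (GRCh38.p14), with the seed of each microRNA in capitals. Matches to these seeds in transcripts were not computed. All 34 microRNA symbols among the shared probe sets matched an entry. The labels name miR-205 without an arm, so both arms of MIR205 are shown (chr1:209432166-209432187 and chr1:209432203-209432223, plus strand). The others lie inside MIR9-2HG and MIR29B2CHG, host genes whose shared probe sets rose. They are miR-9-5p (chr5:88666902-88666924, minus strand), miR-29c-3p (chr1:207801865-207801886, minus strand) and miR-29b-3p (chr1:207802450-207802472, minus strand).
miR-205-5p: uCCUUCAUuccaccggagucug
miR-205-3p: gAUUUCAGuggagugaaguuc
miR-9-5p: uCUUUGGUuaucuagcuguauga
miR-29c-3p: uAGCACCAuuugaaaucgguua
miR-29b-3p: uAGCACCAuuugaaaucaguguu
The miR-29c and miR-29b arms share 1 seed, AGCACCA, and the seeds of miR-205 and miR-9 are different from it and from each other.

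How alike copies can be is shown by CTAGE4 (chr7:144183216-144183515, plus strand), the stretch from 250 bases before to 50 bases after its start, with the last 50 bases in capitals. CTAGE6 and CTAGE8 had the same 300 bases without a mismatch, and all 3 symbols stand together on the CTAGE probe sets described below.
CTAGE4: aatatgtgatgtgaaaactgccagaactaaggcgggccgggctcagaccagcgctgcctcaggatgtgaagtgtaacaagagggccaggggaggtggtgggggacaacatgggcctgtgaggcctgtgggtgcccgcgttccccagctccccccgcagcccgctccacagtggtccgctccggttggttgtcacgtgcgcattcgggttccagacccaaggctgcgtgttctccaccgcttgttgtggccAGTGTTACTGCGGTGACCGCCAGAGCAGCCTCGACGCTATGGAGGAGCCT
Of 1406 symbols on probe sets that read gene copies, 732 had such a window in RefSeq. Within their probe sets these gave 1140 pairs of genes, of which 183 were alike at 270 or more of the 300 bases and 104 were identical.

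The log2 values of the arrays had medians of 6.82 to 6.86. A probe set is called dim here where its mean over the 6 arrays did not exceed 6.12, the 95th percentile of 381 probe sets for single olfactory receptor genes. The 6 epithelial and PC3 markers were above it, at 7.24 to 12.55. Of the luminal prostate markers 1 of 2 was above it (KLK2 at 6.39, KLK3 not), of the leukocyte markers 1 of 3 (CD14 at 6.33, PTPRC and CD3E not), and of the fibroblast markers 3 of 4 (COL1A1 at 8.99, COL1A2 and PDGFRB, but not DCN). Negative control replicate 2 lay apart from the other control arrays for many of the probe sets below, as their values show.

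With miR-205, shared probe sets rose more often than they fell. In the limma fit over the whole table (adjusted p under 0.05), 176 of the 1754 were higher and 73 were lower, which is 14.2%, against 14.5% of all probe sets (background). The direction was uneven: 10% of the shared probe sets were higher and 4.16% lower, against 7.44% and 7.08% of all probe sets. Among the 3696 called probe sets with 1 symbol, 46.5% were higher, and among the 249 called shared ones 70.7%. The groups did not overlap for 37.9% of the shared probe sets, against 34.6% of all probe sets, with 22.7% wholly higher and 15.2% wholly lower. The same shares were 17.7% and 16.9% of all probe sets, and 19.9% and 22.1% of those with 1 symbol. A stricter rule of size, an unadjusted p under 0.01 with a 1.5-fold change, took 65 shared probe sets (3.71%), against 3.76% of all probe sets and 4.52% of those with 1 symbol.

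Most of these changes were modest. The median log2 difference was 0.02 over the shared probe sets and -0.02 over those with 1 symbol, and among the called ones it was 0.46 for those that rose and -0.37 for those that fell. At least 2-fold changes were called for 8 that rose, 5 of which held identical values, and 2 that fell. The count of rises was 95, 83 and 101 without miR-205 replicate 1, 2 or 3, and 110, 207 and 112 without negative control replicate 1, 2 or 3. The count of falls was 27, 26 and 25 in the first 3 of these fits and 41, 92 and 32 in the other 3. Of the 249 calls, 88 passed in all 6 of these fits (69 higher and 19 lower).

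The members are not independent readings. Because copies share probes, 342 of them had values identical to another member on all 6 arrays, in 146 sets of up to 9, and the 1754 probe sets held 1558 different sets of values. Counted once each, 161 rose and 70 fell. The number of symbols was 2 for 896 probe sets, 3 for 270 and 4 or more for 588, up to 18. Calls were made for 17.2% of those with 2 symbols, 13% of those with 3 and 10.2% of those with 4 or more, against the same background of 14.5%.

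The counts by kind of sharing are given here beside 14.5% of all probe sets called (7.44% higher and 7.08% lower); the differences between kinds were not tested. Of 77 small RNAs listed with another gene, 18 were higher and 1 was lower (24.7% called), with a median log2 difference of 0.13, against 0.02 over all shared probe sets. Read-through genes listed with a partner had 35 higher and 16 lower of 211 (24.2% called). Genes listed with their pseudogene had 28 in each direction of 202 (27.7% called), and these were bright, with a median level of 9.67. The other copies of a family had 68 higher and 17 lower of 1022 (8.32% called), at a lower median level of 6.60. The part of level in these counts was not tested. Some of these copies also list a pseudogene, such as H3P6 with H3-3A, under a name not formed from the other symbol. In all, 650 shared probe sets list a pseudogene, so these kinds do not separate probe sets with and without one. The remaining combinations gave 27 higher and 11 lower of 237. The 5 antisense or divergent pairs whose symbols do not begin alike gave 0 calls in limma. They had 0 at an unadjusted p under 0.05 and 0 with a variance trend and robust moderation. Pairs whose symbols begin alike were counted as copies of a family. LLPH-DT with LLPH was such a divergent pair, and it passed in limma (adjusted p = 0.0308). Without negative control replicate 2, the small RNA count rose from 18 to 28, and without miR-205 replicate 2 it was 7, while the 28 falls of genes with a pseudogene were 9 to 11 without any 1 miR-205 array or negative control replicate 3, 16 without negative control replicate 1 and 30 without negative control replicate 2.

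**Figure D1:**
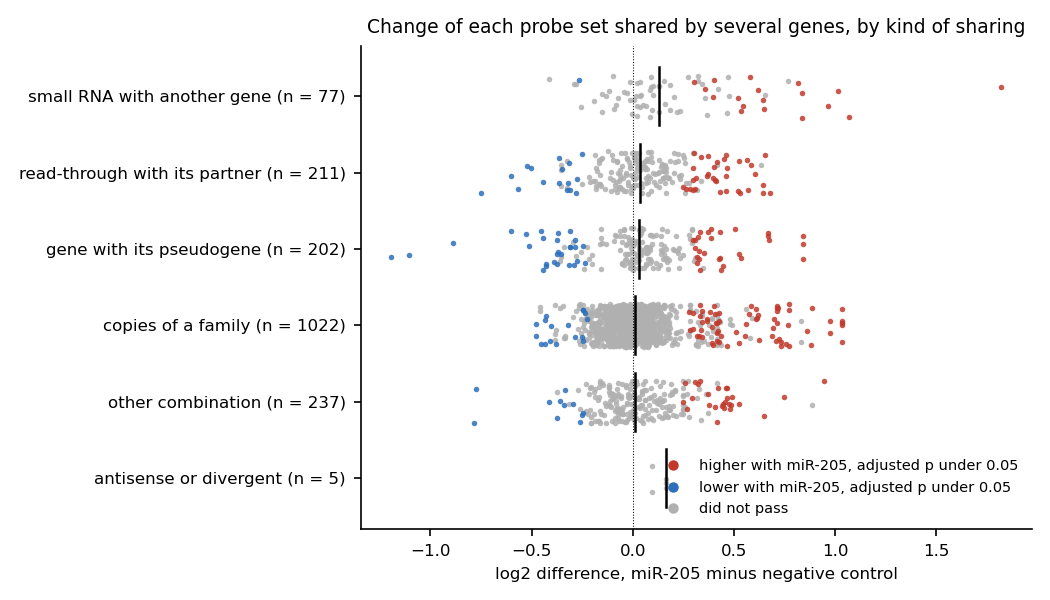
Each point is 1 shared probe set, placed by its log2 difference (miR-205 minus negative control, horizontal axis) and its kind of sharing (vertical axis), with random vertical spread; black bars are medians and colours mark the limma call at an adjusted p under 0.05. The 18 rises among 77 small RNA probe sets reach 1.82, and the largest falls, to -1.19, are among genes listed with their pseudogene.

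The largest rise was in a microRNA host. The probe set for MIR9-2HG and MIR9-2, the noncoding host and the hairpin of miR-9, read 6.17, 5.87 and 6.03 with miR-205 and 3.79, 4.57 and 4.25 with the control mimic. Every miR-205 array was above every control array, and the controls lay well under the dim threshold of 6.12, which the mean with miR-205 did not reach either. The difference was 1.82 ± 0.19 (log2, SE, n = 3 per group, limma adjusted p = 0.00256), and 2.01 without negative control replicate 2. The host of miR-29b and miR-29c moved the same way: MIR29B2CHG with MIR29C read 6.18, 5.70 and 5.70 against 4.84, 5.04 and 5.20, without overlap. That rise was 0.83 ± 0.16 (adjusted p = 0.0157), and it ended without negative control replicate 1 (adjusted p = 0.0532). MIR29B2CHG with MIR29B2 rose by 0.55 at a very low level (means of 3.19 and 2.65), a call that ended without miR-205 replicate 1 (0.0534), miR-205 replicate 2 (0.0565) or negative control replicate 3 (0.0512).

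Among the 23 probe sets that list a microRNA with another gene, these 3 and 1 more rose and 1 fell, and 5 of the 23 were above the dim threshold. The remaining rise was MIR622 with KRT18, the latter a keratin of simple epithelia. It read 11.94, 11.93 and 12.03 against 11.32, 11.34 and 11.39, with no overlap and the control arrays all lower. It rose by 0.62 ± 0.06 (adjusted p = 0.00185), and KRT18's own probe set rose by 0.55. The fall was in DNM3OS with MIR199A2, the antisense host of miR-199a, by -0.27 (adjusted p = 0.0231), and that call stood only without negative control replicate 2 among the 6 fits that leave out 1 array (adjusted p of 0.0587 to 0.0916 in the others). The locus of miR-205 itself, MIR205HG with MIR205, read 5.32, 5.33 and 5.49 against 5.25, 5.26 and 5.38. The groups overlapped, the difference was 0.09 ± 0.07 (adjusted p = 0.51), and the level was dim.

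**Figure D2:**
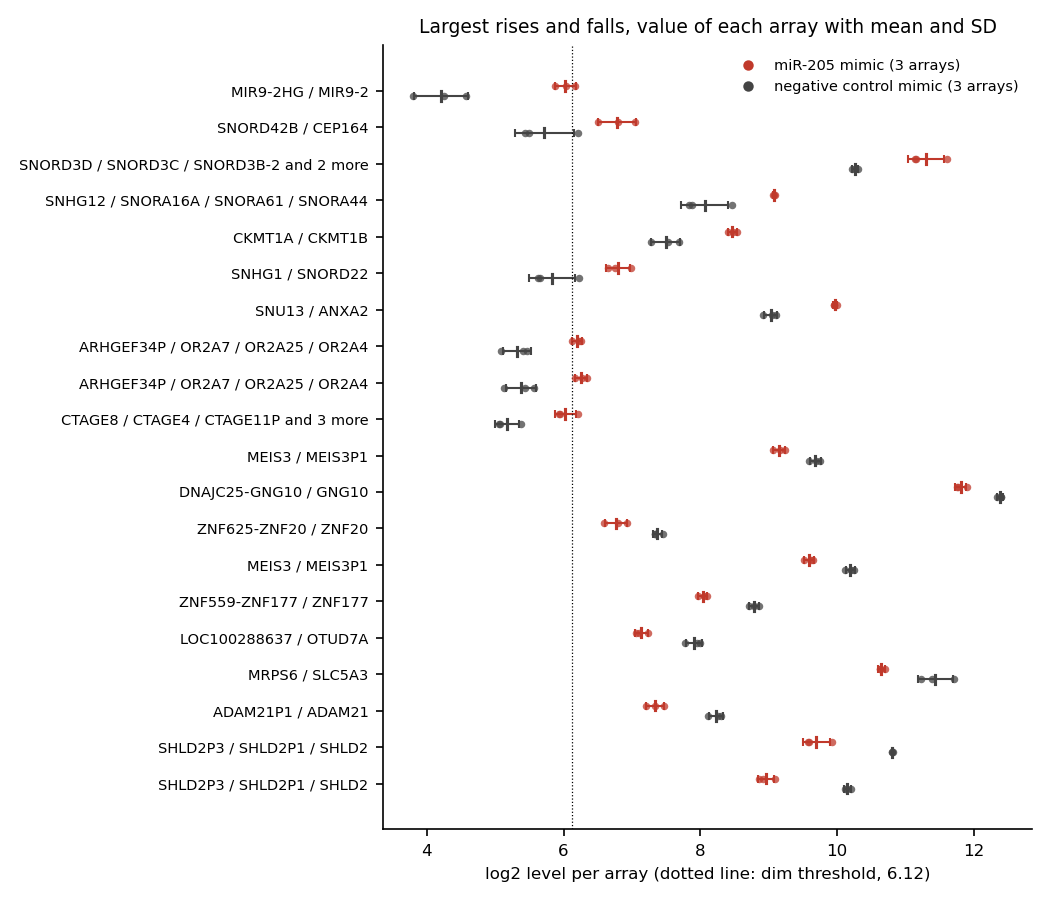
Log2 level of each array (horizontal axis) for the shared probe sets with the largest rises (top) and falls (bottom); points are arrays, bars are the mean with SD of 3 arrays per group, probe sets with identical values are drawn once, and the dotted line is the dim threshold. Only called probe sets without overlap between groups were eligible, and the rows run from the rise of 1.82 for MIR9-2HG with MIR9-2 to the fall to -1.19 for SHLD2 with its pseudogenes.

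Host transcripts of snoRNAs formed the next group. SnoRNAs guide the chemical modification and cutting of ribosomal RNA and are released from the introns of hosts such as GAS5 and the SNHG genes. Of 53 probe sets that list a snoRNA or Cajal body RNA with another gene, 14 rose and no other passed, with a median difference of 0.23, beside 7.44% of all probe sets that were higher. Among the 20 with an SNHG gene or GAS5, 8 rose (median 0.44). Among the 11 with a ribosomal protein gene 4 rose, and among the 6 with TAF1D 1 rose. These counts depended on single arrays: the 8 became 6, 3 and 6 without miR-205 replicate 1, 2 or 3, and 4, 13 and 4 without negative control replicate 1, 2 or 3, while the 4 became 1, 0, 1, 2, 6 and 1 in the same order.

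SNHG12 with SNORA16A, SNORA61 and SNORA44 read 9.08, 9.06 and 9.09 with miR-205 and 7.84, 8.46 and 7.88 with the control mimic. Negative control replicate 2 was the highest control, and no control reached the miR-205 arrays. The rise was 1.02 ± 0.16 (adjusted p = 0.00935), or 1.21 without that array. The other probe sets of the SNHG12 locus rose by 0.40 (SNORA44), 0.53 (SNORA16A) and 0.64 (SNORA61). The first call ended without miR-205 replicate 1 (0.0544) or 2 (0.0592) or negative control replicate 3 (0.0505), the second without miR-205 replicate 2 (0.0507), and the last without miR-205 replicate 2 (0.0512) or negative control replicate 1 (0.0507) or 3 (0.0509).

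SNHG1 carries several snoRNAs, and differences between its probe sets were not tested. With SNORD22 it read 6.65, 6.99 and 6.75 against 5.65, 6.22 and 5.63, again with negative control replicate 2 the highest control and no overlap. It rose by 0.96 ± 0.18 (adjusted p = 0.0147), a call that ended without miR-205 replicate 2 (0.0551) or without negative control replicate 1 (0.0523) or 3 (0.0526). With SNORD26 it rose by 0.65, a call that ended without miR-205 replicate 1 (0.0553) or negative control replicate 1 (0.0587). With SNORD29 it read 10.26, 10.49 and 10.32 against 10.32, 10.44 and 10.05, overlapping groups with a difference of 0.09 (adjusted p = 0.671), and with SNORD25, SNORD27 and SNORD31 it did not pass either (0.32, 0.47 and 0.65).

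SNHG3 with SNORA73A rose by 0.81 (adjusted p = 0.0129, and 0.0515 without miR-205 replicate 3). GAS5 with SNORD47 rose by 0.52 (adjusted p = 0.0411), while GAS5 with SNORD76, at 7.86, 7.90 and 7.45 against 6.58, 7.47 and 6.87, had a difference of 0.77 that did not pass (adjusted p = 0.077). In that probe set negative control replicate 2 overlapped the miR-205 arrays. The GAS5 with SNORD47 call passed only without negative control replicate 2 among the fits that leave out 1 array, with adjusted p up to 0.129 in the others. SNORD36A and SNORD36C with RPL7A, a ribosomal protein of the large subunit, rose by 0.84 (adjusted p = 0.0245). That call ended without any 1 miR-205 array or negative control replicate 3 (adjusted p up to 0.0817), and RPL7A's own probe set differed by 0.16 (adjusted p = 0.252). SNORA1 with TAF1D, a subunit of the RNA polymerase I factor SL1, rose by 0.58 (adjusted p = 0.00648) with every array left out in turn, and TAF1D's own probe set differed by 0.06. SNORD42B with CEP164, which lie on different chromosomes, read 7.05, 6.8 and 6.5 against 5.44, 6.21 and 5.50. Its rise of 1.07 ± 0.23 (adjusted p = 0.0262) ended without miR-205 replicate 1 (0.0828) or 2 (0.0819), or negative control replicate 1 (0.0817) or 3 (0.0893).

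The snoRNA U3, which guides the first cuts of ribosomal precursor RNA, has several near-identical genes, and 5 probe sets list SNORD3D, SNORD3C, SNORD3B-2 and 2 more. All 5 held the same values: 11.15, 11.14 and 11.60 with miR-205 and 10.22, 10.26 and 10.30 with the control mimic. The control arrays were tight and all lower. They count as 1 reading, with a rise of 1.03 ± 0.13 (adjusted p = 0.00411) that stood with each array left out. The tandem snoRNA clusters of the Prader-Willi syndrome region gave no call in limma. SNORD115, a brain snoRNA, was dim in all 8 of its probe sets, with differences of -0.05 to 0.10 and 0 at an unadjusted p under 0.05. SNORD116 was bright (median level 9.58 over 9 probe sets), with differences of 0.02 to 0.32 and 2 at an unadjusted p under 0.05, and 0 calls for either with a variance trend and robust moderation. Without negative control replicate 2, 2 of the SNORD116 probe sets passed. The U1 spliceosomal RNA probe sets (9, in 3 sets of values) differed by 0.28 to 0.42 with 0 calls in limma with or without a variance trend and robust moderation, and 7 at an unadjusted p under 0.05. RNVU1-17, RNU1-1, RNU1-2 and 4 more read 12.48, 12.60 and 12.76 against 12.20, 11.97 and 12.43 on 5 of them, without overlap (adjusted p = 0.0845). Without negative control replicate 3, 2 of the U1 probe sets passed.

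Among protein-coding copies, CKMT1A with CKMT1B, neighbouring genes for the mitochondrial creatine kinase, led the rises. Their 2 probe sets held the same values, 8.53, 8.40 and 8.47 against 7.27, 7.69 and 7.52. All controls were lower, negative control replicate 1 most of all. The rise was 0.97 ± 0.11 (adjusted p = 0.00314). SNU13, a protein that binds snoRNAs, shared a probe set with ANXA2, the membrane-binding annexin A2. That probe set read 10, 9.95 and 9.96 against 8.92, 9.05 and 9.11, groups that stood clear of each other. It rose by 0.94 ± 0.07 (adjusted p = 0.000947), whereas ANXA2's own probe set, at means of 12.66 and 12.78, differed by -0.13 (adjusted p = 0.198).

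A cluster of rises shared the symbol ARHGEF34P. ARHGEF34P, ARHGEF35 and ARHGEF5 read 9.08, 9.15 and 9.12 against 8.35, 8.38 and 8.29 on 1 probe set and rose by 0.77 ± 0.06 (adjusted p = 0.000983), and by 0.69 on the other. ARHGEF34P also stands with the olfactory receptors OR2A7, OR2A25 and OR2A4 on 2 probe sets that were dim. The first read 6.34, 6.27 and 6.16 against 5.13, 5.56 and 5.43, and the 2 rose by 0.88 and 0.89 (adjusted p of 0.00521 and 0.00407). OR2A25 on its own probe set differed by 0.06. All 4 calls stood with each array left out.

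CTAGE genes are intronless copies of MIA2, which encodes a protein of cargo export from the endoplasmic reticulum, and are counted among cancer-testis antigens. All 4 CTAGE probe sets rose, by 0.46 to 0.86, in the whole fit and with each array left out. CTAGE8, CTAGE4, CTAGE11P and 3 more read 5.93, 5.94 and 6.21 against 5.06, 5.07 and 5.37, with an adjusted p of 0.00557. All 4 means were dim, and the groups did not overlap on any of them. The 2 probe sets that also list MIA2 rose by 0.63 and 0.46, and MIA2's own probe set rose from a mean of 7.85 to 8.52, that is by 0.67 (adjusted p = 0.0014). CTAGE1's own probe set differed by 0.08 (adjusted p = 0.525). No other cancer-testis probe set passed among the 76 of that list, and the 10 with MAGE symbols differed by -0.06 to 0.04.

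Olfactory receptor genes are mostly silent outside the nose, and 381 probe sets for single receptors set the dim threshold. Yet the 17 probe sets of the OR7E family, largely pseudogenes spread over several chromosomes by duplication, had a median level of 10.07. They fell into a split by symbol that was seen only after the values. The 12 that list CCZ1P-OR7E38P, a joined pseudogene transcript, all rose, by 0.37 to 0.72 (median 0.70). The 5 that do not list it, all with OR7E85BP, differed by -0.08 to -0.05, with 0 calls and 0 at an unadjusted p under 0.05. These 5 were also much lower in level, with array medians of 6.75 to 6.90 against 9.73 to 10.54 for the 12. The part of level in the split was not tested. OR7E37P, OR7E35P, CCZ1P-OR7E38P and 6 more read 10.63, 10.45 and 10.52 against 9.78, 9.91 and 9.78 on probe set 8045887, where every control was lower (0.71 ± 0.07, adjusted p = 0.00232). CCZ1P-OR7E38P has its own probe set, which rose by 0.43 (adjusted p = 0.00715), while DAPL1 and OR7E24, listed on several of the 12, differed by 0.08 and -0.09 on theirs. The 12 became 11 without miR-205 replicate 2 or 3 or negative control replicate 3.

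FGF7, keratinocyte growth factor, shares 6 probe sets with its copies, and all 6 rose, by 0.38 to 0.84. The 6 held 4 different sets of values. Of these probe sets, 2 also list FAM88C and are counted again among the FAM88 probe sets below. FGF7P3, FGF7P6 and FGF7 read 6.35, 6.13 and 6.23 against 5.55, 5.18 and 5.46 on 3 probe sets with the same values, which were dim. Negative control replicate 2 was the lowest, and the rise was 0.84 ± 0.11 (adjusted p = 0.00518). The probe set of FGF7 alone differed by -0.05 (adjusted p = 0.627). FAM88C, FAM88D and GLIDR rose by 0.51 to 0.77 on 5 probe sets (8.63, 8.37 and 8.33 against 7.58, 8.02 and 7.42 on 2 of them), and these 5 calls passed only without negative control replicate 2 among the fits that leave out 1 array. Over the 9 FAM88 probe sets the count of 7 fell to 1 without miR-205 replicate 1 or 3, and to 2 without miR-205 replicate 2 or negative control replicate 1 or 3.

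TNXB, which encodes tenascin-X of the extracellular matrix, shares 4 probe sets with its truncated copy TNXA. All 4 rose, by 0.52 to 0.76, with each array left out as well. Probe set 8125289 read 9.37, 9.35 and 9.32 against 8.48, 8.46 and 8.83, with negative control replicate 3 the highest control and no overlap. KIF4B with KIF4A, mitotic kinesins, rose by 0.72 (adjusted p = 0.0165), close to the 0.74 of KIF4A's own probe set. That shared call ended without miR-205 replicate 1 (0.0593) or 2 (0.063) or negative control replicate 1 (0.059). GBP1P1 with the interferon-induced GTPases GBP3 and GBP1 rose by 0.67 (adjusted p = 0.00227), and EFL1P1 with EFL1, a GTPase of ribosome maturation, by 0.67 (adjusted p = 0.0014), although EFL1's own probe set differed by 0.07.

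Some probe sets of other families rose by less than that. Of 38 ribosomal protein probe sets 10 rose, beside the background of 7.44% higher, with a median of 0.23 and 27 at an unadjusted p under 0.05. RPL39P5, ZNF525 and RPL39 read 12.03, 12.02 and 12.21 against 11.72, 11.72 and 11.51 and rose by 0.43 (adjusted p = 0.0217). The 10 became 0 without any 1 miR-205 array or negative control replicate 3, 4 without negative control replicate 1 and 13 without negative control replicate 2. Among 25 probe sets of keratin-associated proteins of the hair shaft 7 rose, and these 7 were in the KRTAP4 cluster (9 probe sets, 0.28 to 0.42). KRTAP20-4 listed with SPATA31C2, a combination outside that list, rose as well, by 0.44 (adjusted p = 0.0242), a call that ended without any 1 miR-205 array or negative control replicate 1 (adjusted p up to 0.0847). KRTAP4-7, KRTAP4-9, KRTAP4-8 and 6 more read 9.11, 9.08 and 9.10 against 8.74, 8.88 and 8.69 on 1 of them, and rose by 0.33 (adjusted p = 0.0213). The own probe sets of KRTAP4-2, KRTAP4-4 and KRTAP4-5 differed by 0.02, 0.17 and -0.01. The 7 became 0 without any 1 miR-205 array or negative control replicate 1, 1 without negative control replicate 3 and 15 without negative control replicate 2. The 6 KRTAP2 probe sets, with 4 different sets of values, did not pass in the whole fit. Their array medians were 10.88, 10.95 and 10.74 against 9.69, 10.69 and 9.68, with negative control replicate 2 apart from the other controls.

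HSPA1B with HSPA1A, the inducible 70-kilodalton heat shock protein genes, had 5 probe sets at 0.33 to 0.43, of which 2 rose. Probe set 8179322 read 11.24, 11.49 and 11.44 against 10.90, 10.90 and 11.08, with adjusted p = 0.0238. Both calls ended without miR-205 replicate 2 or 3 or negative control replicate 1 or 2 (adjusted p up to 0.0907). EIF3CL with EIF3C, a core subunit of translation initiation factor 3, rose by 0.34 (adjusted p = 0.01) on 2 probe sets with the same values, 12.39, 12.38 and 12.31 against 12.02, 12.03 and 12, and with each array left out. ANKRD36BP2, ANKRD36C, ANKRD36 and ANKRD36B, ankyrin repeat copies, rose by 0.50 on probe set 8043697 (adjusted p = 0.00348), with each array left out as well. The POTE genes, primate-specific relatives, had 0 calls among 14 probe sets, with 3 at an unadjusted p under 0.05 and 0 with a variance trend and robust moderation.

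**Figure D3:**
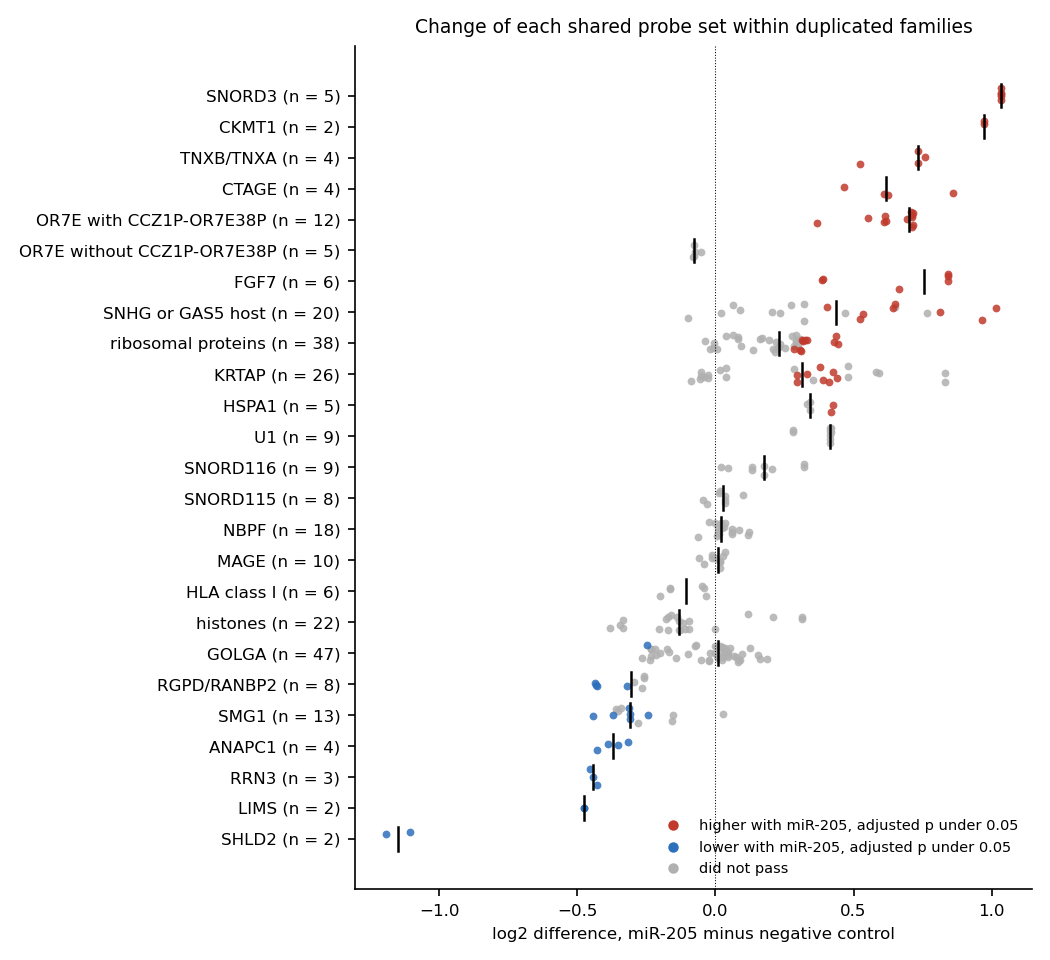
Each point is 1 shared probe set, placed by its log2 difference (miR-205 minus negative control, horizontal axis) within a duplicated family or symbol group (vertical axis, with the number of probe sets); black bars are medians and colours mark the limma call. OR7E probe sets with and without CCZ1P-OR7E38P lie apart, at medians of 0.70 and -0.08, and the SHLD2 probe sets lie lowest.

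The largest falls were in SHLD2, a subunit of shieldin, which protects broken DNA ends from resection. Its probe sets list the pseudogenes SHLD2P3 and SHLD2P1. The first read 9.09, 8.92 and 8.86 with miR-205 and 10.20, 10.14 and 10.11 with the control mimic, a gap far wider than either group's spread. It fell by 1.19 ± 0.08 (log2, adjusted p = 0.000703), the second fell by 1.11 ± 0.10 (adjusted p = 0.00163), and SHLD2's own probe set fell by 1.05 (adjusted p = 0.00174). ADAM21P1 with ADAM21, a metalloprotease known from testis, read 7.2, 7.33 and 7.47 against 8.11, 8.30 and 8.26 and fell by 0.89 ± 0.09 (adjusted p = 0.00226). ADAM21's own probe set differed by -0.48 (adjusted p = 0.113).

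MRPS6, a mitochondrial ribosomal protein, and SLC5A3, the myo-inositol transporter, share a locus and a probe set. It read 10.62, 10.62 and 10.70 against 11.38, 11.22 and 11.71, with no overlap and the widest spread among controls. It fell by 0.79 ± 0.12 (adjusted p = 0.00906), and SLC5A3's own probe set fell by 1.05 (adjusted p = 0.00456). LOC100288637 with OTUD7A, a deubiquitinase, read 7.24, 7.10 and 7.06 against 7.78, 7.95 and 8 and fell by 0.78 ± 0.09 (adjusted p = 0.00289), while OTUD7A's own probe set differed by -0.12 (adjusted p = 0.579). MEIS3, a homeobox gene, with MEIS3P1 fell by 0.60 on 1 probe set (9.64, 9.62 and 9.51 against 10.20, 10.25 and 10.12) and fell by 0.53 on another, against -0.08 (adjusted p = 0.582) on MEIS3's own. These 7 falls all passed with each array left out.

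Read-through probe sets hold the other large falls. ZNF559-ZNF177 with ZNF177, a zinc finger gene, read 7.96, 8.09 and 8.05 against 8.71, 8.78 and 8.86 and fell by 0.75 ± 0.07 (adjusted p = 0.00163). ZNF625-ZNF20 with ZNF20 fell by 0.60 ± 0.10 (adjusted p = 0.00958). DNAJC25-GNG10 with GNG10, a gamma subunit of G proteins, read 11.90, 11.75 and 11.77 against 12.40, 12.40 and 12.33, bright and without overlap, and fell by 0.57 ± 0.06 (adjusted p = 0.00316). All 3 stood with each array left out. The third zinc finger call, ZNF718 with ZNF595, fell by 0.40 (adjusted p = 0.0237) and passed only without negative control replicate 2 among the fits that leave out 1 array (adjusted p of 0.0576 to 0.0867 in the others).

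Some copies from recently duplicated blocks of the human genome fell by smaller amounts, beside the background of 7.08% lower. The RGPD genes are partial copies of RANBP2, a nucleoporin of the cytoplasmic face of the nuclear pore. Their 8 probe sets differed by -0.44 to -0.26, and 4 fell. RGPD2, RGPD6, RGPD8 and 5 more read 10.58, 10.52 and 10.56 against 11.08, 10.83 and 11.04 on probe set 8044304. Negative control replicate 2 was the lowest control and no groups overlapped (-0.43 ± 0.08, adjusted p = 0.0159). Without that array all 8 fell, and without any other 1 array 0 passed. RANBP2's own probe set differed by 0.01 (adjusted p = 0.942).

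SMG1, a kinase of nonsense-mediated decay, shares 13 probe sets with its pseudogenes, of which 6 fell. SMG1P3, SMG1P1, SMG1P5 and SMG1 read 9.70, 9.58 and 9.58 against 10.02, 9.90 and 10.28 on probe set 8000687 (-0.45 ± 0.11, adjusted p = 0.0356), and SMG1's own probe set fell by 0.62 (adjusted p = 0.0142). The 6 became 10 without negative control replicate 2, 2 without negative control replicate 1 and 0 without any 1 of the other arrays. All 3 probe sets of RRN3, the initiation factor of RNA polymerase I, with its pseudogenes fell, by 0.43 to 0.45 (adjusted p of 0.0335 to 0.0459). They passed again only without negative control replicate 2, and RRN3's own probe set differed by -0.39 (adjusted p = 0.102). All 4 probe sets of ANAPC1, the scaffold of the anaphase-promoting complex, with its pseudogenes fell, by 0.32 to 0.43. Of these, 1 passed without miR-205 replicate 1 or 2, 2 without miR-205 replicate 3 or negative control replicate 1 or 3, and 4 without negative control replicate 2.

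Firmer among the copies were LIMS and NOTCH2. LIMS4, LIMS3-LOC440895, LIMS3 and LIMS1, the last encoding the integrin adaptor PINCH1, read 10.84, 10.81 and 10.62 against 11.28, 11.23 and 11.19 on 2 probe sets with the same values. They fell by 0.48 ± 0.08 (adjusted p = 0.00978), and LIMS1's own probe set fell by 0.56 (adjusted p = 0.00279). NOTCH2NLB, NOTCH2NLA and NOTCH2 read 10.89, 10.92 and 10.91 against 11.20, 11.31 and 11.34 and fell by 0.38 ± 0.06 (adjusted p = 0.00982), with each array left out as well. The receptor gene NOTCH2 alone fell by 1.40 (means of 9.72 and 11.12), a larger change than that of the probe set it shares with the human-specific NOTCH2NL copies, and the difference between these was not tested. The NBPF genes, which lie among those copies, had 0 calls in 18 probe sets, and 0 at an unadjusted p under 0.05, at a median level of 11.54.

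Some large families had no call in limma, beside 14.5% of all probe sets called. They were histones (22 probe sets), HLA and KIR genes (40), defensins (23), TBC1D3 (11), immune receptors (25), chemokines (7), USP17 proteases (17) and copies on the Y chromosome (48). At an unadjusted p under 0.05 there were 3, 7, 0, 0, 0, 0, 1 and 2 of them in that order, and a variance trend with robust moderation called 2 histone and 1 USP17-family probe sets and no other. Several of these probe sets were dim. Group means with miR-205 and control were 5.04 and 5.22 for DEFB105B with DEFB105A, and 5.04 and 4.92 for DEFB103A with DEFB103B. USP17L15, USP17L20, USP17L3 and 5 more had 5.27 and 5.44, while the HLA-C with HLA-B and histone probe sets below were bright. The part of level in these counts was not tested. HLA-C with HLA-B, antigen-presenting molecules, read 11.23, 11.34 and 11.19 against 11.46, 11.53 and 11.39, without overlap, but the difference of -0.20 did not pass (adjusted p = 0.105). H3C13, H3C15 and H3C14, replication-dependent histones, had a difference of -0.38 on 1 of their probe sets (adjusted p = 0.162), where the groups overlapped. Without negative control replicate 2, 2 histone probe sets were higher and 4 lower. Of 47 GOLGA probe sets 1 fell, by 0.25 (adjusted p = 0.0452), and that call ended with any 1 array left out (adjusted p up to 0.141). SMN2 with SMN1, the spinal muscular atrophy genes, differed by 0.16 on 3 probe sets (adjusted p of 0.144 to 0.148). H3P6 with H3-3A differed by 0.05 to 0.11 and CCL3L3, CCL3L1 and CCL3 by -0.05, all with overlapping groups.

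For 721 of the shared probe sets at least 1 of the listed genes, 463 genes in all, also has a probe set of its own. Where a gene had several of its own, the 1 with the highest mean level was taken, here and above, a choice made on the values. With identical values counted once this gave 940 pairs of a shared and an own reading, whose log2 differences had a Pearson correlation of 0.50, a description across probe sets that share arrays and sometimes probes. In 104 pairs the shared probe set rose: the gene's own rose too in 23, fell in 2 and did not pass in 79. In 45 pairs the shared probe set fell: the own fell too in 18 and did not pass in 27. In 38 pairs the own reading rose and in 42 it fell where the shared one did not pass. Of 123 pairs chosen because the own probe set passed, the shared change was the smaller in 102, with median sizes of 0.20 shared and 0.43 own.

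The pairs that went opposite ways were UQCRHL, UQCRH and GNA13 and RSKR with SPAG5. The former probe set read 11.02, 11.04 and 11.07 against 10.70, 10.66 and 10.50 and rose by 0.42 ± 0.07 (adjusted p = 0.0109). GNA13, a G protein alpha subunit, fell by 0.45 (adjusted p = 0.00747) on its own, while UQCRH, a subunit of respiratory complex III, differed there by 0.38 (adjusted p = 0.081). RSKR with SPAG5 rose by 0.33 (adjusted p = 0.036), and SPAG5, a spindle protein, fell by 0.37 (adjusted p = 0.0453) (means of 9.48 and 9.85). That shared call passed only without negative control replicate 2 among the fits that leave out 1 array (adjusted p = 0.0395). Large changes on a gene's own probe set stood beside small ones on a shared probe set for PIGF and SVIL. PIGF, of glycolipid anchor synthesis, differed by 1.24 on its own (adjusted p = 0.00835) and by -0.06 in DGLUCY with PIGF. SVIL, which encodes supervillin, differed by -0.99 on its own (adjusted p = 0.000625) and by 0.12 in SNHG32 with SVIL. How much of either transcript these shared probe sets read was not tested.

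**Figure D4:**
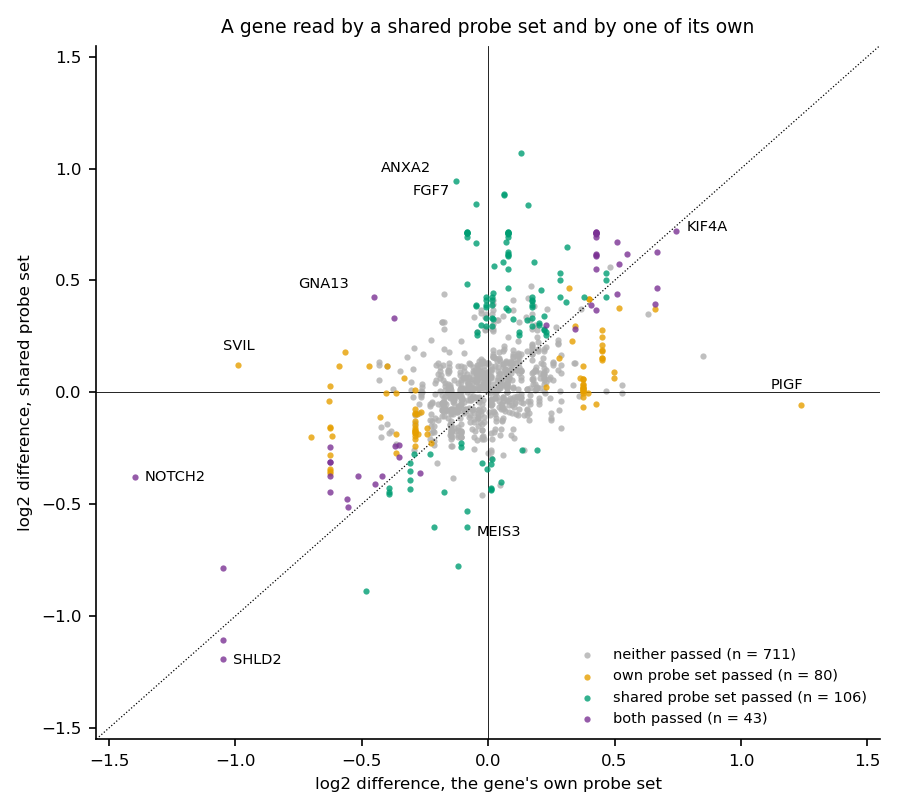
Log2 difference of a gene's own probe set (horizontal axis) against that of the probe set it shares with other genes (vertical axis), 1 point per pair, for 940 pairs; colours mark which of the 2 passed the limma test, the dotted line marks equal changes, and the labels name genes with an own probe set. SVIL and PIGF lie near the horizontal axis, at own changes of -0.99 and 1.24, and ANXA2 and FGF7 near the vertical one.

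A read-through gene joins neighbouring genes into 1 transcript, and its symbol is listed with either of them. Of 100 such genes, 64 had shared probe sets on both of their genes, so that the values at both genes can be given side by side. Each of these probe sets also reads the separate transcript of its own gene, so they do not measure the joined transcript alone. Where a gene had several such probe sets, the 1 with the highest mean with miR-205 was taken, a choice made on the values. Neither gene's probe set passed in 38. These include RPL36A-HNRNPH2, although another of its probe sets with RPL36A passed in limma (adjusted p = 0.0445). In 14 pairs 1 rose and the other did not pass, and in 9 pairs 1 fell and the other did not pass. Both rose in 2 (ATP6V1G2-DDX39B and P2RX5-TAX1BP3), and in 1 they went opposite ways. The median distance between the 2 log2 differences was 0.25, and the distances were not tested.

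The opposite pair was CHURC1-FNTB. The probe set with CHURC1 read 9.96, 10 and 10.01 against 9.57, 9.67 and 9.44 and rose by 0.43 (adjusted p = 0.0118). The probe set with FNTB, the beta subunit of farnesyltransferase, read 10.69, 10.75 and 10.78 against 11.00, 10.95 and 11.02 and fell by 0.25 (adjusted p = 0.0322). The groups overlapped in neither. The first call ended without miR-205 replicate 2 (0.0507), and the second passed only without negative control replicate 2 among the fits that leave out 1 array.

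The widest gap was in URGCP-MRPS24, where the probe set with MRPS24, a mitochondrial ribosomal protein, read 11.57, 11.51 and 11.61 against 10.84, 11.00 and 10.89 and rose by 0.66 ± 0.07 (adjusted p = 0.00224). The one with URGCP read 6.90, 7.16 and 7.01 against 7.23, 7.14 and 7.68 and overlapped (-0.33, adjusted p = 0.206). In COMMD3-BMI1 the probe set with COMMD3 rose by 0.57 (adjusted p = 0.00685), while the one with BMI1, a Polycomb protein, read 12.08, 12.08 and 12.10 against 12.10, 12.15 and 12, with a difference of 0.01. In SYNJ2BP-COX16 the probe set with SYNJ2BP, a mitochondrial outer membrane protein, read 11.23, 11.13 and 11.09 against 11.70, 11.63 and 11.64 and fell by 0.50 (adjusted p = 0.00411). The one with COX16, an assembly factor of cytochrome oxidase, differed by 0.15 (adjusted p = 0.157). These 3 calls stood with each array left out, as did those of UBE2F in UBE2F-SCLY (0.53), BSCL2 in HNRNPUL2-BSCL2 (0.42), ERCC5 in BIVM-ERCC5 (0.68) and RAB43 in ISY1-RAB43 (-0.45).

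**Figure D5:**
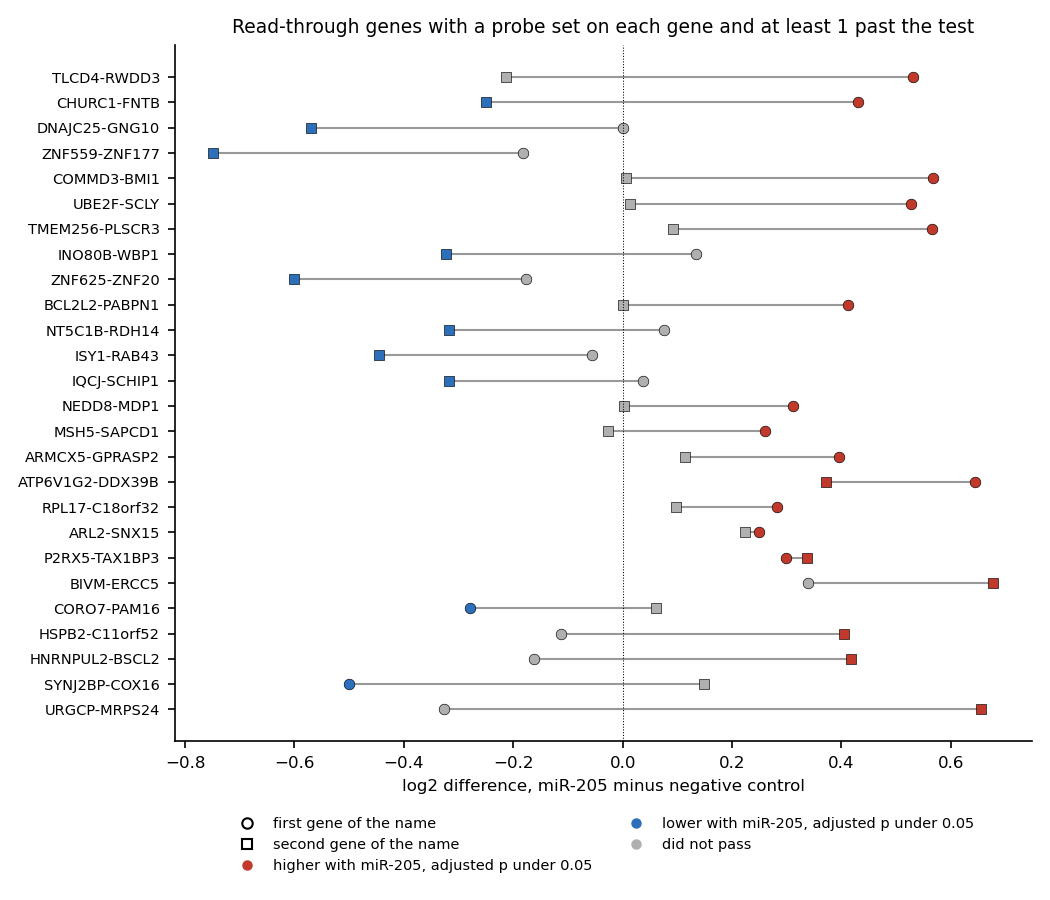
Log2 difference (miR-205 minus negative control, horizontal axis) on the first (circles) and second gene (squares) of each read-through name (vertical axis). Each gene is read by its probe set with the highest miR-205 mean. Shown are pairs with at least 1 of these probe sets past the limma test, and colours mark the call. CHURC1-FNTB has a gene on each side, at 0.43 and -0.25.

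Where the listed genes lie in the genome varied. By RefSeq positions, 823 shared probe sets list genes within 1 Mb of each other, 485 list genes further apart on 1 chromosome and 431 list genes on several chromosomes. Of these, 91, 26 and 57 rose and 26, 32 and 14 fell. The shares called were 14.2%, 12% and 16.5%, near the 14.5% of all probe sets. SHLD2, RGPD, SMG1 and NOTCH2 are among the genes far apart on 1 chromosome, SNORD3 and CKMT1 among those within 1 Mb, and CTAGE and OR7E among those on several chromosomes.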

How the data were processed

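The table that the authors deposited holds log2 values, summarised by RMA (Affymetrix Expression Console, version 1.1.2), a step known from the submitters' processing notes. No further normalization was applied. Genome build and probe mapping are not given in the sources used here. Gene names come from the platform's annotation of probe sets, and their positions, kinds and sequences from RefSeq (GRCh38.p14), where 6670 of 6700 symbol entries were found. In R 4.3.3, limma 3.58.1 (lmFit and eBayes) tested miR-205 against the control mimic with no other term. Its p-values are two-sided and were adjusted by Benjamini-Hochberg across all 33297 probe sets. The number of arrays limits the precision. The fit was tested on simulated data.

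Of the probe sets that list several genes, 1 lists the same symbol (UPK3B) more than 1 time. A probe set is named by its symbols together. Named by rule were the 15 largest rises and 10 largest falls among called probe sets without overlap, the 3 smallest p-values of each family of at least 5, and preset symbols. All others were chosen after their values were seen. The members, families and lists were chosen with earlier results of these data known.

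Tried besides were other normalizations, other choices of probe sets tested, filters on dim probe sets, other variance models, weighted arrays, a block for the replicate number, and fits without each single array.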

Additional observations from a re-analysis of the deposited data

How the results depend on the processing

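Of 176 rises and 73 falls, adjusted p under 0.01 left 61 and 17, and an unadjusted p under 0.01 with a 1.5-fold change left 57 and 8. By kind these were 38 and 9, then 38 and 4 (copies), 14 and 5, then 16 and 2 (joined or overlapping loci), and 9 and 3, then 3 and 2 (other combinations). Falls were more numerous with other sets of tested probe sets: 130 with listed probe sets only, 124 with those of several symbols only, 137 above the dim threshold and 111 above the lower quartile. A variance trend with robust moderation gave 114. Rises were more numerous too, at 253, 245, 232, 215 and 220 in the same order. Falls of copies were 87, 85, 93, 76 and 79 against 45, and their rises 144, 141, 129, 116 and 122 against 96. Falls of other combinations were 19 with listed probe sets only and 20 above the dim threshold, against 11. Their rises there were 35 and 34, against 27. The cause was not tested. Counting identical values once, chosen after seeing the data, moved no count by over 1.5 times.

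Replicate numbers did not pair the arrays: same-numbered arrays had correlations of -0.01, 0.05 and 0.00 after removal of group means. With the replicate number as a block, 117 rose and 33 fell. By kind, copies gave 64 and 19, joined loci 36 and 9, and other combinations 17 and 5. Leaving out 1 array gave 83 to 207 rises and 25 to 92 falls. These were 50 to 114 and 13 to 58 for copies, 20 to 64 and 7 to 21 for joined loci, and 13 to 29 and 4 to 13 for other combinations. Of the 55 named calls, none changed sign in these alternatives. Of the same 55, 13 were lost with the block and 3 to 22 with 1 array left out, and array weights, median centring and repeated quantile normalization each lost 1. With 3 arrays a group, small changes at dim levels are the least certain.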
